A study of Mus musculus with 30 samples.

Results

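On day 14 after immunization, EDL muscle from 5 EAE mice was compared with EDL muscle from 5 OVA mice by bulk RNA-Seq. The extensor digitorum longus (EDL) is a fast-twitch muscle of the lower hind limb. These are 10 of the 30 mice in the series, which also holds untreated Ctrl mice on the same day and the 3 groups again on day 40, with 5 mice each. EAE, experimental autoimmune encephalomyelitis, is a mouse model of multiple sclerosis in which T cells attack central myelin. All mice were SJL/J females, deposited as separate replicates. EAE mice received a peptide of myelin proteolipid protein (PLP) emulsified in complete Freund's adjuvant, without pertussis toxin. OVA mice received ovalbumin in the same adjuvant, so that both groups carried the inflammation that the adjuvant causes, and Ctrl mice were not immunized. In this strain the disease is mild and relapsing-remitting, and day 14 lies near its first peak, whereas day 40 lies in its chronic remission phase. Clinical scores of the single mice were not used here. Genes were tested when their mean level was above 3 RPKM (reads mapped to a gene, scaled to its exon length and to the reads mapped in the library) in the EAE or in the OVA mice. Of 21073 genes in the table, 8674 met this rule.

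A muscle fibre is kept in its adult state by its motor nerve. Acetylcholine released at the neuromuscular junction opens a pentameric receptor, and the resulting activity holds down the fetal receptor subunits, the myogenic regulatory factors and the muscle-specific ubiquitin ligases elsewhere in the fibre. After loss of the nerve or of activity, HDAC4 and MYOG raise this programme, the proteasome takes apart myofibrils, and genes of energy metabolism fall. Fast fibres such as those of the EDL normally rely on glycolysis, on parvalbumin to remove calcium quickly, and on the creatine kinase shuttle to move energy from mitochondria to myosin.

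Whole reads are visible as equal steps in the low RPKM values, and from these steps between 18700000 and 23900000 reads were estimated for the OVA mice and between 18200000 and 21800000 for 4 EAE mice, with 31600000 for EAE replicate 3. The estimate covers reads counted on genes only. Fast-fibre identity was plain in every library, with ACTA1, skeletal alpha-actin, at 15615 to 17554 RPKM in EAE and 15904 to 17813 RPKM in OVA mice, and with MYH4, the fast IIb myosin heavy chain, between 3518 and 7494 RPKM in the 10 mice. Mice differed within groups along an axis of transcript length. The correlation across genes between a mouse's deviation from its group mean and log exon length ran from -0.61 in EAE replicate 1 to 0.48 in EAE replicate 2, and from -0.63 in OVA replicate 1 to 0.64 in OVA replicate 2. Genes called lower in EAE were shorter (median exon length 2101 bases) than those called higher (3458 bases) or all tested genes (3107 bases). When the length trend was taken out of each mouse, an alternative chosen after seeing the data, 820 of the 957 genes below called higher and 674 of the 805 called lower were called again.

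Expression differed widely between the groups. By limma on log2(RPKM + 0.1), with Benjamini-Hochberg adjusted p below 0.05 and a change above 1.5-fold, 957 of 8674 genes (11%) were higher in EAE than in OVA mice and 805 (9.28%) were lower. All 5 EAE mice lay above all 5 OVA mice for 1558 genes (18%) and below them for 711 genes (8.2%), and 774 of the genes called higher and 478 of those called lower showed this separation. The change exceeded 4-fold for 61 genes called higher and 22 called lower. Counts of called list members below are to be read beside the 11% and 9.28% of all tested genes. The median difference of all tested genes was 0.11 on the log2 scale, and it was 0.07 after median-of-ratios scaling. RPKM values are shares of a library, and the split of calls moved when libraries were scaled to the sum without the 10 most abundant genes, to 1277 higher and 644 lower. The 10 most abundant genes held 22.5% to 24.2% of the summed RPKM in EAE mice and 24.9% to 27.3% in OVA mice. A gene that passed the 3 RPKM rule through only 1 of the groups had to differ to some extent, and this was so for 420 genes that passed through EAE, 170 of them called, and for 369 that passed through OVA, 172 of them called. Genes named below that passed through EAE only include CHRNG, CHRNA9, MUSK, KCNN3, GDF5, KRT18, KRT8, EDA2R, RPL3, Trdj1 and Trdc. Those that passed through OVA only include OSTN, alas2, PTPRC and NNMT. For all such genes the separation and p-value rest partly on this rule. In whole muscle, fewer cells of a type and less RNA per cell cannot be told apart.

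**Figure D1:**
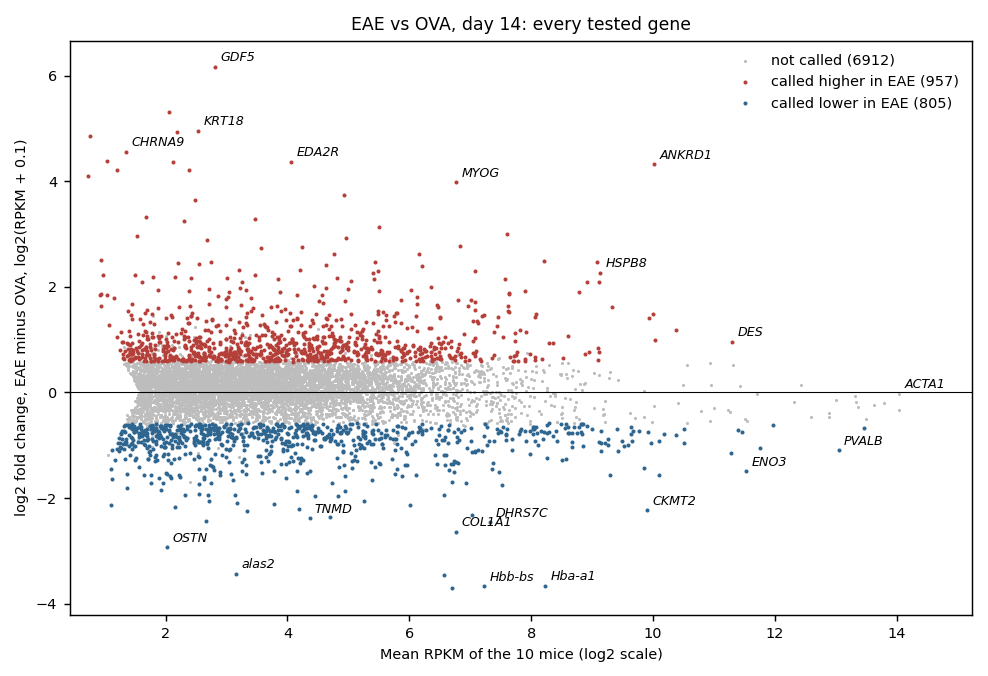
Each point is 1 of the 8674 tested genes, with the mean RPKM of the 10 mice on a log2 axis and the log2 fold change (EAE minus OVA, on log2(RPKM + 0.1)) on the vertical axis. Genes called higher (957) reach from GDF5 at 6.16 to abundant genes such as DES, and the called lower genes (805) include the haemoglobin genes near -3.7 and abundant fibre genes such as ENO3 and PVALB.

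The muscle of the OVA mice was close to that of the untreated mice. Against the 5 Ctrl mice of day 14, 8 genes were higher and 4 lower in OVA mice of 8471 tested, whereas 1282 were higher and 1036 lower in EAE mice of 8771 tested. For all 957 genes called higher in EAE against OVA, the EAE mean was also above the Ctrl mean, and for 800 of the 805 called lower it was also below it. These comparisons share their mice, so the Ctrl levels are given only as a second baseline.

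At the neuromuscular junction, receptor subunits and receptor-clustering genes rose while the acetylcholinesterase genes fell. Of 15 tested members of the list, 8 were higher, 2 lower and 5 not called, with a median log2 fold change of 0.71 that became 1.31 without OVA replicate 2. CHRNA1, the muscle alpha subunit of the acetylcholine receptor, was at 84.7, 69.2, 25.8, 48.6 and 50.6 RPKM in EAE replicates 1 to 5 and at 7.00, 6.24, 6.70, 6.46 and 7.43 RPKM in OVA replicates 1 to 5. The lowest EAE mouse, replicate 3, was still above every OVA mouse, and the Ctrl mice at 6.34 to 7.49 RPKM overlapped the OVA mice. The rise was 7.57-fold (log2 fold change 2.92, SE 0.22, adjusted p = 4.4e-07 by limma). CHRNG encodes the gamma subunit, which marks the fetal receptor and is replaced by epsilon in adult fibres. Its levels were 11.5, 16.4, 5.50, 3.88 and 15.6 RPKM in EAE mice against 0.95, 0.39, 0.62, 0.66 and 0.69 RPKM in OVA mice. Again no mouse overlapped, with replicates 3 and 4 the lowest of the EAE group, and the log2 fold change was 3.64 (SE 0.36, adjusted p = 4.5e-06). CHRNE, the adult epsilon subunit, was at 6.83 to 10.6 RPKM in EAE and 9.61 to 12.2 RPKM in OVA mice, and the difference of -0.34 (SE 0.14) was not called (adjusted p = 0.059).

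The other receptor subunits rose with CHRNA1 and CHRNG. CHRND (delta) was at 6.73 to 20.6 RPKM in EAE and 1.38 to 3.73 RPKM in OVA mice, a log2 fold change of 2.16, and chrnb1 (beta) was at 76.6 to 126 RPKM against 26.5 to 34.1 RPKM, a log2 fold change of 1.82. CHRNA9, a subunit of a receptor known from hair cells and not from the adult junction, rose from 0.04 to 0.18 RPKM in OVA mice to 2.46 to 10.7 RPKM in EAE mice. MUSK, the receptor kinase that clusters acetylcholine receptors, was at 6.30, 19.4, 5.15, 5.10 and 9.16 RPKM in EAE and 0.35, 1.31, 1.25, 0.83 and 0.41 RPKM in OVA mice. EAE replicate 2 stood above the other EAE mice for MUSK, and the groups did not overlap (log2 fold change 3.25, SE 0.43, adjusted p = 3.8e-05). NCAM1, an adhesion molecule that spreads along denervated fibres, rose by 2.45 on the log2 scale, and DOK7, the adaptor of MUSK, by 0.71, which fell under 1.5-fold without OVA replicate 1 (0.54). ACHE, which breaks down acetylcholine, went the other way, from 19.0 to 27.4 RPKM in OVA mice to 6.65 to 16.8 RPKM in EAE mice (log2 fold change -1.24, SE 0.23, adjusted p = 0.00065). Its collagen tail gene COLQ also fell, by 0.83 on the log2 scale, but EAE replicate 3 at 6.67 RPKM was above all OVA mice. RAPSN, the scaffold under the receptor, was at 32.1 to 40.8 RPKM in EAE and 26.4 to 37.5 RPKM in OVA mice and was not called.

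Promoters of 4 of these genes are printed because 3 of them rose together and the fourth did not. Each runs from 250 bases before to 50 bases after the RefSeq start on build GRCm38.p6, 5′ to 3′ on the strand of the gene, and capitals mark the hexamer CAGCTG, an E-box of the kind that myogenic factors bind, which reads the same on both strands.
Chrna1 (chr2:73580289-73580588, minus strand): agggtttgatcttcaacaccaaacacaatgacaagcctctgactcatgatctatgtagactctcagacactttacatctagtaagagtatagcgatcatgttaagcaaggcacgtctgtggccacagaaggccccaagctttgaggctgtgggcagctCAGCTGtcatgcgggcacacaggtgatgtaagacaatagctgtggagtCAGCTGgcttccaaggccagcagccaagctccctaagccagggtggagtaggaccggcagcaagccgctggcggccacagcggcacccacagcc
Chrng (chr1:87205561-87205860, plus strand): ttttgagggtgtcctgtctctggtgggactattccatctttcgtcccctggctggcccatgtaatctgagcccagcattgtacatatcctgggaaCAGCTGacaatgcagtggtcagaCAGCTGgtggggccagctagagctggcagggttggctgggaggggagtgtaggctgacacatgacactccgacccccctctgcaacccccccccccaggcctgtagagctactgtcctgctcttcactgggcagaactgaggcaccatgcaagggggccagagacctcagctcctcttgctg
Musk (chr4:58285712-58286011, plus strand): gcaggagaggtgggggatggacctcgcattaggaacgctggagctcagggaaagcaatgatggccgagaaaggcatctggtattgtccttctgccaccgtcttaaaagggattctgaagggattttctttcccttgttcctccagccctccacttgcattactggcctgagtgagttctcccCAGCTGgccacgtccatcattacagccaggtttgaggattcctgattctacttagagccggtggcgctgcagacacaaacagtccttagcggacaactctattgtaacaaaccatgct
Chrne (chr11:70619145-70619444, minus strand): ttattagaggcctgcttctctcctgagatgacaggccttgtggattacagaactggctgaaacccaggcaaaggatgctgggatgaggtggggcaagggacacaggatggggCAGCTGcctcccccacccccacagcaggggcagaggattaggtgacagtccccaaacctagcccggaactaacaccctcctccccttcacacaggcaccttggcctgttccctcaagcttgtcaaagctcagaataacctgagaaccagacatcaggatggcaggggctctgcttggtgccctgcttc
The hexamer occurred 2 times each in the Chrna1 and Chrng windows and 1 time each in the Musk and Chrne windows. Among genes with a promoter entry, 153 of 764 called higher (20.0%), 129 of 617 called lower (20.9%) and 1237 of 6950 tested (17.8%) had it in at least 1 promoter. Counted per promoter and not per gene, it was present in 5355 of all 32851 (16.3%), a share in another unit. A match is a run of letters and not evidence of a bound site.

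Of all 56 gene lists, denervation signalling and myogenic genes had the highest medians above 3 RPKM, which without a filter on low values were 0.97 and 0.61, the first and the fifth of the lists. Of 12 tested genes of denervation signalling 8 were higher and 1 lower, with a median log2 fold change of 1.64. MYOG, the myogenic factor that activates the receptor genes after denervation, was at 273, 369, 112, 65.9 and 216 RPKM in EAE replicates 1 to 5. In OVA replicates 1 to 5 it was at 11.8, 7.82, 9.87, 9.06 and 19.1 RPKM. The lowest EAE mouse for MYOG, replicate 4, was above the highest OVA mouse, replicate 5, and the log2 fold change was 3.98 (SE 0.36, adjusted p = 1.8e-06). HDAC4, the deacetylase that removes repressors of MYOG, was at 9.70, 27.0, 10.1, 9.92 and 21.3 RPKM in EAE and 2.33, 4.62, 4.82, 3.57 and 1.87 RPKM in OVA mice. Mice 2 and 5 were the highest EAE mice for HDAC4, as they were for MUSK, and the groups did not overlap (log2 fold change 2.09, adjusted p = 0.00015). GADD45A, which acts downstream of HDAC4 in denervated fibres, rose by 3.00, RUNX1, a transcription factor that limits wasting of denervated fibres, by 2.88, and CDKN1A, the p21 cell cycle inhibitor, by 2.78 on the log2 scale. SIK1, MEF2C and CAMK2B were also higher, by 2.41, 0.75 and 0.70, whereas NNMT was lower (-0.86), with overlap between the groups, and it did not pass the 3 RPKM rule without OVA replicate 4 or 5.

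The myogenic list held 8 tested members, of which 6 were higher and none was lower (median log2 fold change 1.38). MYOD1, the determination factor of the lineage, was at 84.3, 95.9, 57.0, 24.3 and 78.2 RPKM in EAE and 19.3, 19.6, 19.9, 23.6 and 23.9 RPKM in OVA mice. EAE replicate 4 exceeded the highest OVA mouse only narrowly (24.3 against 23.9 RPKM), and the log2 fold change was 1.53 (SE 0.28, adjusted p = 0.00055). MYF6, the factor of mature fibres, rose by 1.86, IGFN1 by 2.14, and CDH15, the cadherin of satellite cells, by 1.23. PAX7, the satellite cell factor, stayed below the 3 RPKM rule at 0.20 to 0.54 RPKM in EAE and 0.11 to 0.40 RPKM in OVA mice and was not tested. Embryonic MYH3 and perinatal MYH8 differed by 0.40 and 0.50 and were not called.

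**Figure D2:**
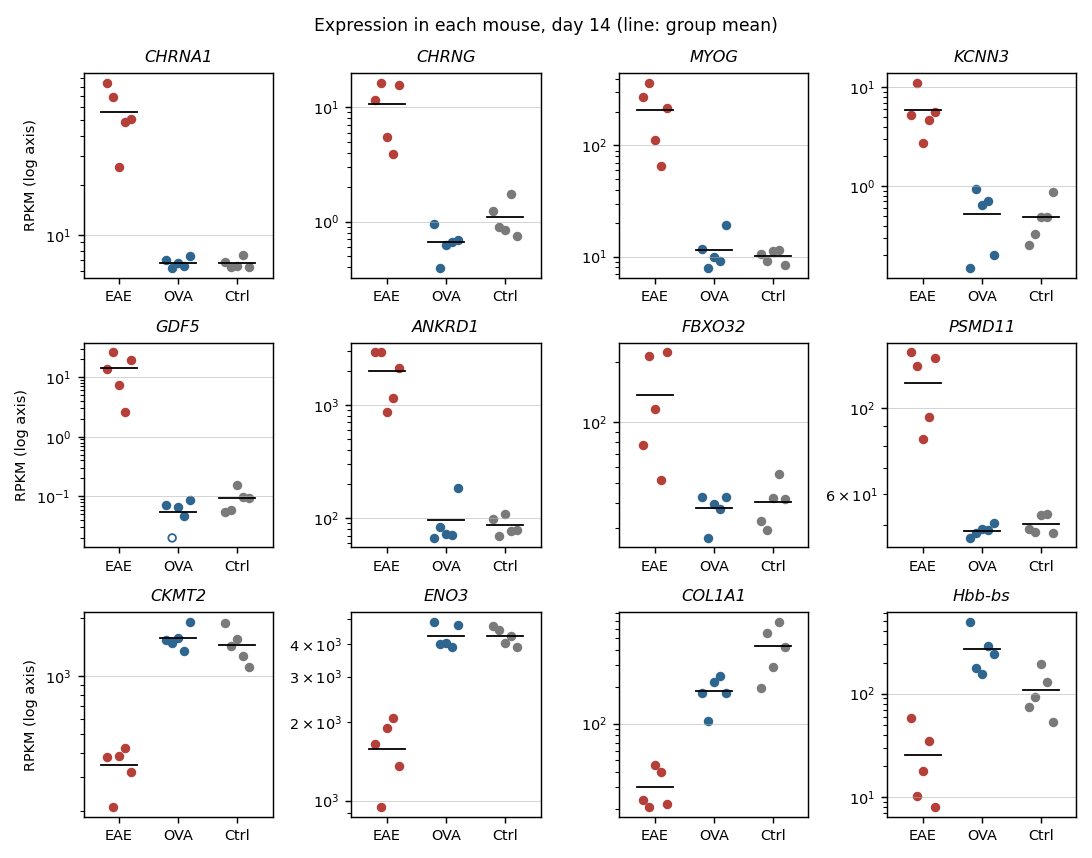
RPKM on a log axis for 12 genes in the 5 EAE, 5 OVA and 5 Ctrl mice of day 14, with a line at each group mean and an open circle, drawn at 0.02, for a mouse listed at 0. In the panels of CHRNA1, CHRNG, MYOG, KCNN3, GDF5, ANKRD1, FBXO32 and PSMD11 all EAE mice lie above all OVA mice, and in those of CKMT2, ENO3, COL1A1 and Hbb-bs all lie below.

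The channels of the fibre membrane divided. KCNN3, a small-conductance calcium-activated potassium channel of denervated fibres (chr3:89520164-89672494 in GRCm38), was at 5.25, 11.2, 2.76, 4.71 and 5.61 RPKM in EAE mice and at 0.15, 0.93, 0.65, 0.70 and 0.20 RPKM in OVA mice. EAE replicate 2 was the highest and replicate 3 the lowest EAE mouse, the groups did not overlap, and the log2 fold change was 3.33 (SE 0.44, adjusted p = 3.4e-05). SCN4A, the adult muscle sodium channel, was not called (54.0 to 102 RPKM in EAE, 39.7 to 82.2 RPKM in OVA mice). KCNQ5, a voltage-gated potassium channel, rose by 1.43 on the log2 scale. The sodium channel beta subunit SCN4B fell by 1.51, and so did the potassium channel KCNA7, at 16.6 to 42.5 RPKM in EAE and 63.0 to 86.1 RPKM in OVA mice (log2 fold change -1.54). In the list of 16 tested sarcolemmal channels 3 were higher, 3 lower and 10 not called. Each direction held 18.8% of the list, against 11% higher and 9.28% lower of all tested genes, so these are small counts.

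GDF5, a ligand of the BMP family that counters atrophy after denervation, had the largest rise of all genes whose groups did not overlap (chr2:155941023-155945367 in GRCm38). It was at 13.9, 26.4, 7.53, 2.58 and 19.7 RPKM in EAE replicates 1 to 5. In OVA mice it was at 0.07, 0, 0.07, 0.05 and 0.09 RPKM, the 0 being a mouse in which no read was counted. The log2 fold change of 6.16 (SE 0.50, adjusted p = 7.3e-07) depends on the pseudocount, as for every gene near 0, and ran from 3.52 to 7.71 over the alternatives. GDF5 was the single called member of 15 tested genes of BMP and SMAD1/5 signalling (median log2 fold change 0.18). In the list of myostatin, activin and TGF-beta, 7 of 18 tested members were higher and 2 lower. MSTN, myostatin, the inhibitor of muscle growth, was at 9.81 to 13.2 RPKM in EAE and 2.51 to 7.63 RPKM in OVA mice. FST, follistatin, which binds myostatin and activin, was at 7.45 to 15.2 RPKM against 3.51 to 5.55 RPKM. Both the inhibitor and its antagonist were therefore higher without overlap, by 1.27 (adjusted p = 0.012) and 1.17 (adjusted p = 0.00011) on the log2 scale.

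Genes with the largest rise outside these lists included keratins and several genes hardly expressed in OVA muscle. KRT18, a simple-epithelium keratin (chr15:102028216-102032026 in GRCm38), was at 21.0, 16.8, 5.10, 4.54 and 9.12 RPKM in EAE mice and at 0.27, 0.16, 0.15, 0.27 and 0.22 RPKM in OVA mice, and its partner KRT8 at 8.33, 4.57, 0.92, 3.00 and 3.30 RPKM against 0.11 RPKM or less. Their log2 fold changes were 4.96 (SE 0.45, adjusted p = 1.8e-06) and 4.38 (SE 0.54, adjusted p = 2.1e-05). Ces2c, a carboxylesterase, rose by 4.93, EDA2R, the receptor of ectodysplasin A2, by 4.37, and TEKT1, a tektin of cilia, by 4.36. EDA2R reached 15.2 to 47.9 RPKM in EAE mice from 0.81 to 1.85 RPKM in OVA mice. Trdj1, a joining segment of the T cell receptor delta locus, was at 3.20, 4.91, 0.62, 3.72 and 4.46 RPKM in EAE mice and was listed at 0 in all OVA and all Ctrl mice, so no fold is given.

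Among called genes, the largest gains in mean RPKM were mostly in structural and stretch-response genes. ANKRD1, a cardiac ankyrin repeat protein of the I-band that responds to stretch and denervation, was at 2911, 2912, 856, 1154 and 2094 RPKM in EAE replicates 1 to 5. Its OVA levels were 67.0, 84.3, 73.1, 71.8 and 183 RPKM. All EAE mice were above OVA replicate 5, which stood apart from the other OVA mice, and the rise was 20.0-fold (log2 fold change 4.32, SE 0.33, adjusted p = 4.4e-07). ANKRD2 (log2 fold change 2.47), the Z-disc protein PDLIM3 (2.10), CSRP3 (1.93) and XIRP1 were among the 7 higher members of 17 tested stretch-response and Z-disc genes, and MYOZ1 was the 1 lower. For CSRP3 the groups overlapped. DES, the muscle intermediate filament desmin, was at 2659 to 4211 RPKM in EAE and 1371 to 2156 RPKM in OVA mice, and FHL1, a LIM protein of the sarcomere, at 686 to 2123 RPKM against 368 to 633 RPKM. VIM, vimentin, the intermediate filament of mesenchymal cells, fell by 0.90 on the log2 scale. In the list of keratins and muscle intermediate filaments 6 of 10 tested genes were higher and 1 lower.

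Several small heat shock proteins, which guard sarcomere proteins, were higher. HSPB8, a partner of BAG3 in removing damaged filamin, was at 1373, 1324, 519, 588 and 903 RPKM in EAE mice and 147, 182, 188, 194 and 199 RPKM in OVA mice, a separation without overlap (log2 fold change 2.27, SE 0.23, adjusted p = 5.0e-06). CRYAB rose by 1.18 and HSPB1 by 1.88, whereas HSPB6 fell by 0.70. Of 24 tested chaperones 6 were higher and 1 lower, and HSPA1A, the inducible HSP70, was not called (2.63 to 14.9 RPKM in EAE, 2.64 to 8.21 RPKM in OVA mice) except without EAE replicate 5 (1.04, adjusted p = 0.049).

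Among the genes of protein breakdown, most calls were in the proteasome. All 34 tested subunits of the constitutive proteasome had positive differences, 26 were called higher (16 without EAE replicate 1) and none lower, and the median log2 fold change was 0.69, from 0.33 for PSMA1 to 1.52 for PSMD8. PSMD11, a lid subunit of the 19S particle, was at 139, 128, 83.1, 94.4 and 134 RPKM in EAE mice. In OVA mice it was at 46.5, 47.8, 49.0, 48.7 and 50.6 RPKM. The OVA mice lay within a narrow band that no EAE mouse entered (log2 fold change 1.22, SE 0.13, adjusted p = 6.1e-06). Subunits of the immunoproteasome, which replaces catalytic subunits under interferon, went down, with PSMB8 at 5.40 to 11.6 RPKM in EAE and 14.5 to 19.0 RPKM in OVA mice (log2 fold change -1.16, adjusted p = 0.012), PSMB9 falling by 1.26 and PSMB10 by 1.07. These 3 genes varied more between Ctrl mice, from 12.4 to 67.2 RPKM for PSMB8, than between OVA mice.

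FBXO32 and TRIM63, the ubiquitin ligases best known from wasting muscle, were higher with wide spread between EAE mice. FBXO32 (atrogin-1) was at 77.4, 214, 117, 52.0 and 223 RPKM in EAE and 42.8, 26.8, 39.5, 37.3 and 42.6 RPKM in OVA mice. TRIM63 (MuRF1) was at 240.3, 477, 229, 145 and 395 RPKM against 119.7, 68.6, 89.4, 89.2 and 108 RPKM. Mice 2 and 5 were the highest EAE mice for both ligases and mouse 4 the lowest, and neither gene overlapped between groups (log2 fold changes 1.66 and 1.54, adjusted p = 0.0011 and 0.00027). With FBXO31 and MDM2 they made up the 4 higher of 15 tested ligases, of which 11 were not called and none was lower. Of 23 tested autophagy genes 2 were higher, MAP1LC3A by 2.09 and SQSTM1 by 0.93, and none was lower, a share (8.7%) below the 11% of all tested genes called higher. GABARAPL1, a further autophagosome gene, was not called (18.2 to 29.5 RPKM in EAE, 12.5 to 22.8 RPKM in OVA mice). Cathepsins and calpains were divided, with 3 of 15 tested higher, led by the calpain CAPN2 (0.83), and 3 lower, led by CTSS. Each direction held 20.0% of this small list, against 11% higher and 9.28% lower of all tested genes.

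Stress genes were mixed. Of 21 tested NRF2 and antioxidant genes 10 were higher and 2 lower. SRXN1, sulfiredoxin, rose by 1.85, TXNRD1 by 1.10 and GCLM by 0.89, while the mitochondrial superoxide dismutase SOD2 fell by 0.93. The extracellular SOD3 was called lower (-0.59), but not without OVA replicate 4 or 5 or EAE replicate 1, 2 or 5 (-0.47 to -0.57). Immediate early genes were higher for 9 of 19 tested members, with FOS at 14.5, 62.3, 23.2, 25.2 and 31.4 RPKM in EAE and 5.16, 4.00, 5.07, 6.68 and 7.10 RPKM in OVA mice. EAE replicate 2 was the highest for FOS, the groups did not overlap, and the Ctrl mice at 3.93 to 14.4 RPKM reached almost to the lowest EAE mouse. The glucocorticoid response list had 9 higher of 18 tested and none lower. FKBP5, a chaperone induced by glucocorticoids, was at 13.2, 15.7, 8.07, 15.9 and 27.8 RPKM in EAE and 12.3, 3.10, 2.42, 4.07 and 3.63 RPKM in OVA mice, so that OVA replicate 1 overlapped the EAE mice. Its log2 fold change was 1.79 (SE 0.40, adjusted p = 0.0026). GLUL, glutamine synthetase, another gene of this list, was at 184 to 233 RPKM against 71.9 to 91.0 RPKM and did not overlap. Of 15 clock genes 5 were higher, led by RORA (1.55), and of 8 tested metallothionein and zinc transporter genes 3 were higher. Among them, Mt1 and Mt2 overlapped because OVA replicate 5, at 164 and 192 RPKM, stood above the other OVA mice. The integrated stress response list had 4 higher, led by SLC7A5 (2.47), and 2 lower of 13 tested, and ATF4 itself was not called (-0.34, adjusted p = 0.016, under 1.5-fold). ODC1, the first enzyme of polyamine synthesis, was at 29.6 to 72.0 RPKM in EAE and 10.2 to 16.1 RPKM in OVA mice and rose by 1.97. TNFRSF12A, the receptor of TWEAK, which drives wasting after denervation, was at 183, 176, 69.4, 71.9 and 149 RPKM in EAE and 21.8, 21.3, 26.3, 25.8 and 76.2 RPKM in OVA mice. OVA replicate 5 overlapped EAE replicates 3 and 4, and the log2 fold change was 1.99 (SE 0.37, adjusted p = 0.00065). Of 11 tested cell cycle genes 4 were lower and none higher.

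Ribosome biogenesis genes were higher for 19 of 48 tested members, none being lower, with a median log2 fold change of 0.52. RRP12, a factor in ribosome export, was the largest at 1.48 (24.2 to 46.0 RPKM in EAE, 8.65 to 13.2 RPKM in OVA mice), and NCL, nucleolin, rose by 0.73. All 69 tested cytosolic ribosomal protein genes had positive differences, with 11 called higher (15.9%, against 11% of all tested genes). This count was 33 without OVA replicate 1, 5 without EAE replicate 1 and between 5 and 45 over all alternatives. These genes have many processed copies and several stood at a few RPKM (RPL3 at 1.10 to 2.20 RPKM in OVA mice), so that reads shared with copies may be lost and their levels are uncertain.

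**Figure D3:**
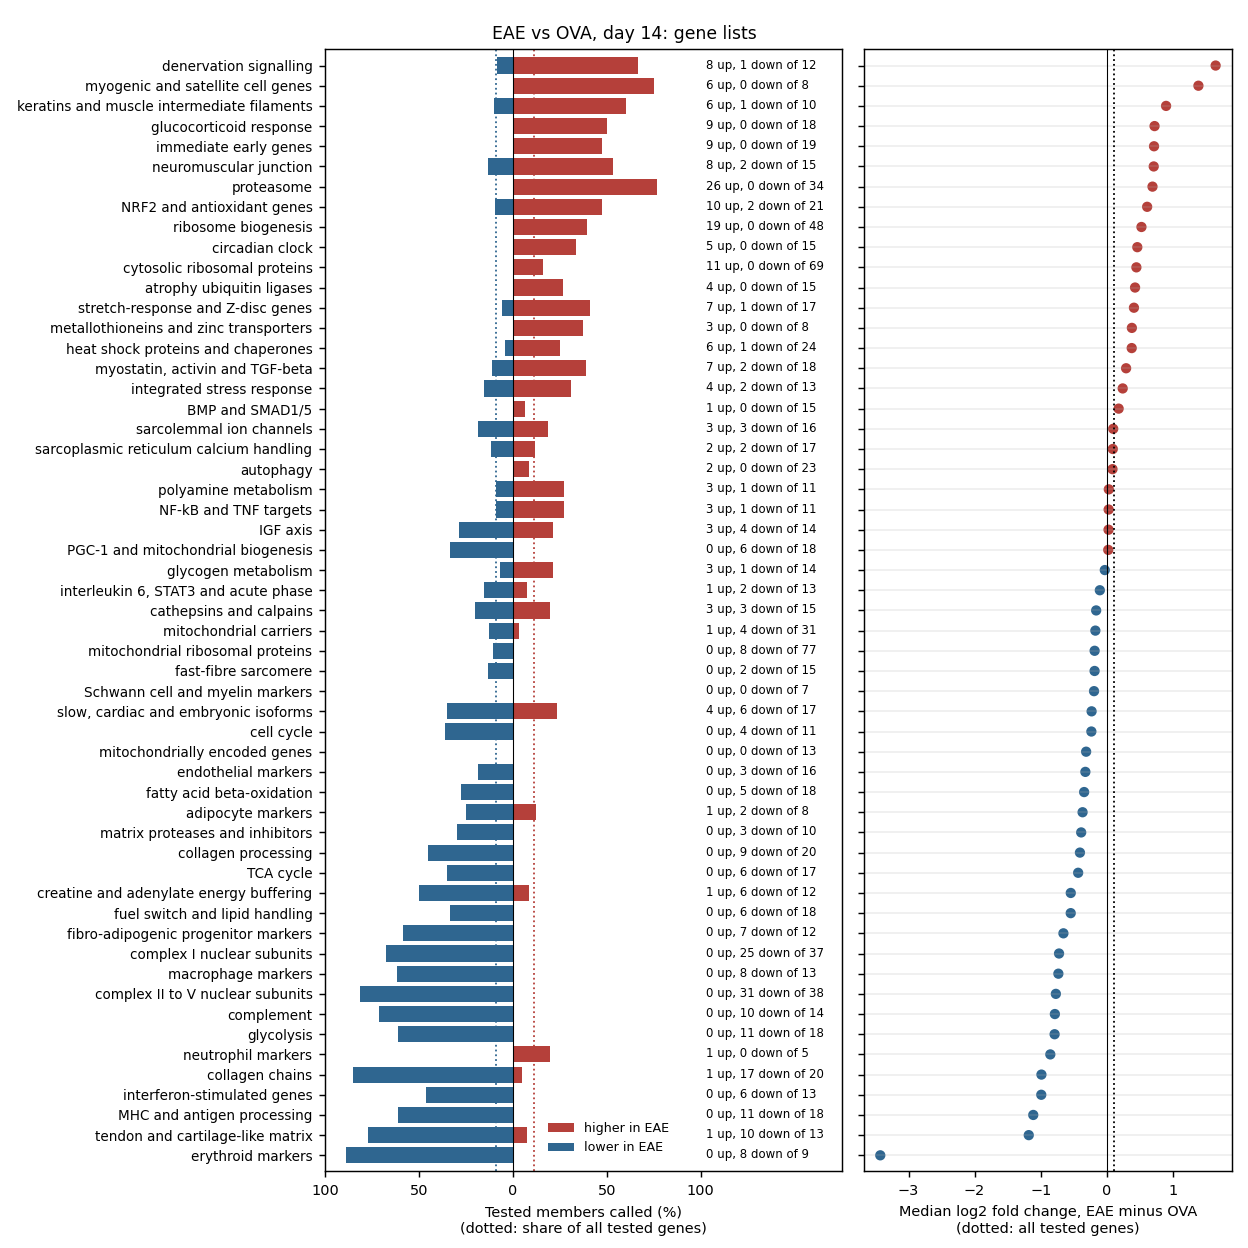
Left, the percent of tested members of each gene list with 5 or more of them called higher (to the right) or lower (to the left) in EAE, with the share of all tested genes dotted, and right, the median log2 fold change of each list, with that of all tested genes dotted. Denervation signalling, myogenic genes and the proteasome lie at the upper end with 8, 6 and 26 members called higher, and erythroid markers (8 of 9 lower) at the lower end.

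Many genes of energy metabolism were lower in EAE mice. Nuclear-encoded respiratory chain genes fell together, with 25 of 37 tested complex I subunits and 31 of 38 subunits of complexes II to V and cytochrome c called lower and none higher. All tested members of both lists had negative differences, with medians of -0.72 and -0.77. NDUFS1, the largest subunit of complex I, was at 125 to 142 RPKM in EAE and 201 to 244 RPKM in OVA mice, and SDHA, the flavoprotein of complex II, at 209 to 301 RPKM against 353 to 446 RPKM. Cox7a1, a muscle isoform of cytochrome oxidase, had the largest fall (1.56). Many subunits are short transcripts, and they were highest in OVA replicates 1 and 5, the OVA mice with the strongest bias to short genes. With the length trend removed, 16 complex I genes and 19 of complexes II to V were still called lower, and no alternative gave fewer. The highest counts were 31 complex I genes with no fold-change threshold and 34 of complexes II to V without OVA replicate 2. None of the 13 genes in the list of mitochondrially encoded genes was called, a list that does not hold every such transcript. ND1 was lower without overlap (8571 to 10038 RPKM in EAE, 12072 to 14532 RPKM in OVA mice) but by less than 1.5-fold. Of 77 tested mitochondrial ribosomal protein genes 8 were lower (10.4%, near the 9.28% of all tested genes), led by MRPL12 (-0.90), or 5 without EAE replicate 2 and 2 with the length trend removed, and none was higher.

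The mitochondrial creatine kinase fell more than the cytosolic one. CKMT2, which passes the phosphate of mitochondrial ATP to creatine, was at 381, 208, 387, 425 and 318 RPKM in EAE replicates 1 to 5. In OVA replicates 1 to 5 it was at 1529, 1490.4, 1573, 1344 and 1916 RPKM. The highest EAE mouse at 425 RPKM was far below the lowest OVA mouse at 1344 RPKM, and the fall was 4.67-fold (log2 fold change -2.22, SE 0.19, adjusted p = 8.9e-07). CKM, the cytosolic creatine kinase, was also lower in every EAE mouse (4308 to 5864 RPKM against 6141 to 8062 RPKM) but by less than 1.5-fold (-0.46, adjusted p = 0.015). AMPD3, the AMP deaminase induced in wasting muscle, was the 1 higher member of 12 tested in this list, at 8.86 to 39.0 RPKM in EAE and 1.53 to 3.69 RPKM in OVA mice, and 6 members were lower.

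Glycolysis genes were called lower for 11 of 18 tested members and higher for none (median log2 fold change -0.79). ENO3, the muscle enolase, was at 1650.1, 942, 1903, 2076 and 1359 RPKM in EAE mice. In OVA mice it was at 4878, 3989, 4031, 3909.6 and 4725 RPKM. No mouse overlapped, EAE replicate 2 was the lowest, and the log2 fold change was -1.49 (SE 0.18, adjusted p = 1.6e-05). TPI1 fell by 1.56 and LDHA by 1.43, whereas HK2, the hexokinase of muscle, was not called (0.25, adjusted p = 0.19). GAPDH was listed at only 30.3 to 72.9 RPKM in OVA mice, far below its neighbours in the pathway, as a gene with many processed copies can be when shared reads are dropped, and its fall of 0.87 is uncertain and was not called without OVA replicate 5 (-0.70) or EAE replicate 2 (-0.70). Glycogen genes showed less, with STBD1, gaa and GBE1 higher and PHKG1 lower of 14 tested, and glycogen phosphorylase PYGM lower without overlap but by less than 1.5-fold (-0.57), or more without any 1 of 4 mice (up to -0.67 without EAE replicate 3).

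Oxidative fuel genes were lower in smaller numbers. Of 17 tested TCA cycle genes 6 were lower, with IDH2 at 32.6 to 102 RPKM in EAE and 159.6 to 213 RPKM in OVA mice (log2 fold change -1.71, SE 0.21, adjusted p = 2.0e-05). Of 18 beta-oxidation genes 5 were lower, led by ACAA2 (-1.12), and of 18 genes of fuel choice and lipid handling 6 were lower (3 without OVA replicate 3 or 5 or EAE replicate 1), led by ANGPTL4, an inhibitor of lipoprotein lipase (-1.54), while PDK4, which blocks pyruvate entry, was not called (52.3 to 164 RPKM in EAE, 83.2 to 191 RPKM in OVA mice). The regulators PERM1 and ESRRA, which drive oxidative genes with PGC-1, fell by 2.13 and 0.89. PERM1 was at 24.0, 12.0, 34.4, 42.0 and 16.2 RPKM in EAE and 71.1, 115, 121, 97.9 and 112 RPKM in OVA mice, with no overlap. PPARGC1A, PGC-1alpha itself, was lower in every EAE mouse (4.05 to 5.21 RPKM against 5.44 to 7.92 RPKM) by less than 1.5-fold (-0.49, adjusted p = 0.0086). The ATP/ADP carrier SLC25A4 fell by 1.04, from 3866 to 6033 RPKM in OVA mice to 1664 to 2782 RPKM in EAE mice.

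Contractile genes of fast fibres were mostly not called. Of 15 tested fast-fibre sarcomere genes MYLK2 and TNNC2 were lower (13.3%, against 9.28% of all tested genes) and 13 were not called. The list median of -0.19 turned to 0.20 under quantile normalization. TNNC2, fast troponin C, lost its call without OVA replicate 1 or 5 or EAE replicate 2, 4 or 5 (-0.52 to -0.66). MYH4 was at 3518, 5235, 7494, 7054 and 5798 RPKM in EAE and 4440.3, 5708, 5539, 5758 and 4304 RPKM in OVA mice, which overlapped fully (log2 fold change 0.14, SE 0.19, adjusted p = 0.59). MYH1, MYH2 and the slow MYH7 were not called either. PVALB, parvalbumin, the calcium buffer of fast fibres, had the largest loss in mean RPKM of all called genes, at 6521, 3161, 7002, 5344 and 4820.4 RPKM in EAE and 18917, 8686, 8456, 10268 and 11305 RPKM in OVA mice. OVA replicate 1 was far above the rest, all EAE mice were below all OVA mice, and the log2 fold change was -1.09 (SE 0.27, adjusted p = 0.0046). CASQ1, the calcium store protein of the sarcoplasmic reticulum, fell by 0.96, and SLN, sarcolipin, an inhibitor of the calcium pump, rose by 1.85. The pump gene ATP2A1 was not called (-0.06, adjusted p = 0.77). DHRS7C, a dehydrogenase of the sarcoplasmic reticulum, was at 60.2, 17.9, 91.2, 79.4 and 29.4 RPKM in EAE and 394, 213, 216, 239.6 and 269 RPKM in OVA mice (log2 fold change -2.46, SE 0.35, adjusted p = 7.5e-05). Slow, cardiac and embryonic isoforms were divided, with 4 of 17 tested higher and 6 lower. The higher members were MYBPH, myosin binding protein H (2.62), MYL4, MYL6B and TNNT2. The lower members were ACTC1, cardiac alpha-actin (-1.94), MYL3, TNNC1, MYL2, MB and TPM3.

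Matrix genes fell strongly. Of 20 tested collagen chains 17 were lower and 1, COL23A1, was higher, with a median log2 fold change of -0.99. COL1A1, the alpha 1 chain of type I collagen (chr11:94936224-94953042 in GRCm38), was at 23.8, 20.6, 45.5, 39.9 and 21.8 RPKM in EAE replicates 1 to 5. In OVA replicates 1 to 5 it was at 179.5, 106, 221, 248 and 177 RPKM. The EAE mice were all below the OVA mice by a fitted 6.23-fold (log2 fold change -2.64, SE 0.33, adjusted p = 2.1e-05), and the Ctrl mice at 196 to 686 RPKM were above most OVA mice (OVA against Ctrl -1.13, adjusted p = 0.34). COL3A1, the fibrillar chain of loose connective tissue, fell by 1.57. Of 20 collagen processing genes 9 were lower and none was higher. Tendon genes were lower for 10 of 13 tested members. TNMD, tenomodulin, a marker of tendon cells, was at 6.91, 3.78, 12.2, 6.30 and 5.04 RPKM in EAE and 47.5, 23.2, 30.6, 35.6 and 34.4 RPKM in OVA mice. SCX, the transcription factor scleraxis of tendon cells, was the 1 higher member of this list, at 166, 83.9, 37.3, 35.8 and 56.3 RPKM in EAE and 18.4, 11.5, 9.52, 11.4 and 15.8 RPKM in OVA mice. Both tendon genes separated the groups without overlap, in opposite directions (log2 fold changes -2.38 and 2.29, adjusted p = 1.0e-05 and 9.1e-05). OSTN, osteocrin, a secreted peptide of muscle and bone, fell by 2.93, from 4.37 to 9.26 RPKM to 0.43 to 1.36 RPKM, and OCIAD2, a mitochondrial protein, by 2.44.

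Fibro-adipogenic progenitor markers, the mesenchymal cells that make much of the muscle matrix, were lower for 7 of 12 tested members and higher for none. The summed level of the 16 markers in the table was 840.3 to 1205 RPKM in EAE, 1209 to 1661 RPKM in OVA and 1703 to 1966 RPKM in Ctrl mice, and no marker was at 0 in all 10 mice. PDGFRA, the surface marker of these cells, was not called (5.66 to 8.42 RPKM in EAE, 6.06 to 10.0 RPKM in OVA mice). The part of these cells in the fall of the collagen genes was not tested.

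**Figure D4:**
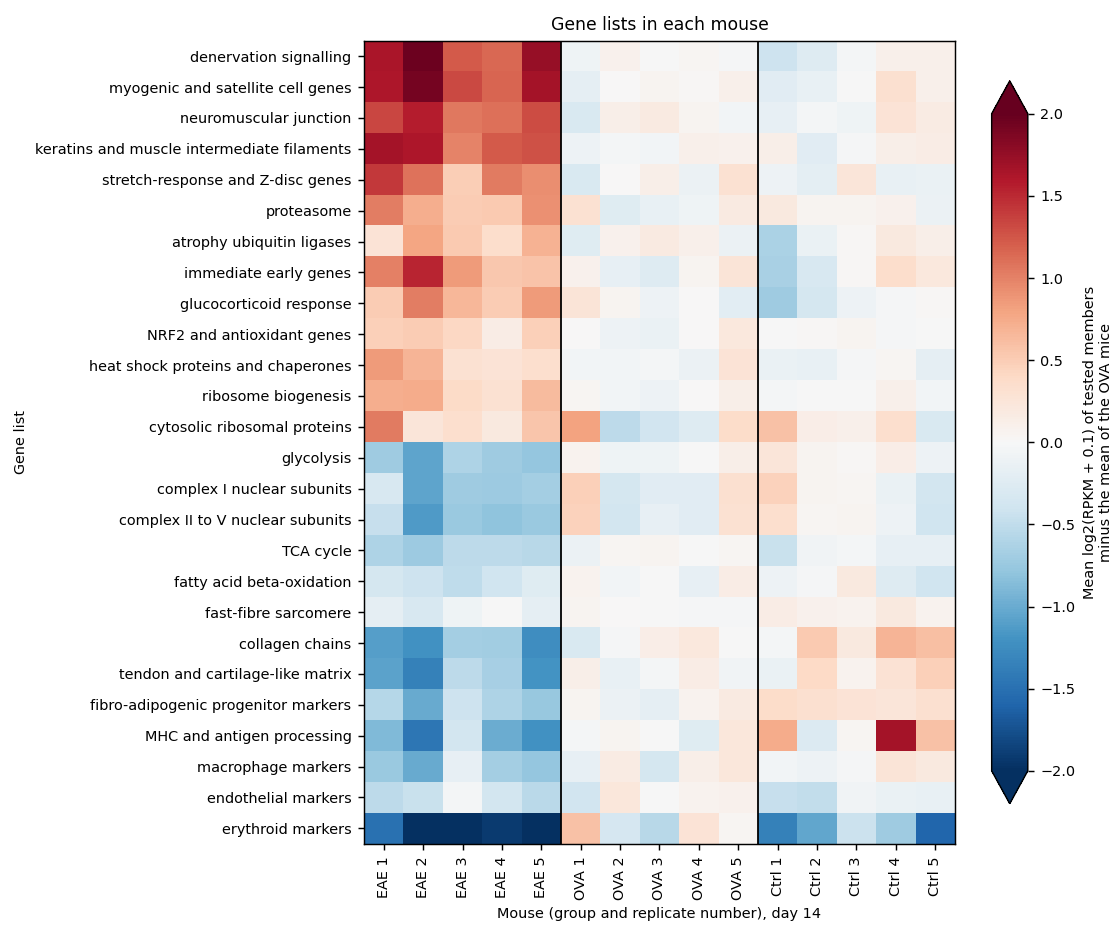
Each cell is the mean log2(RPKM + 0.1) of the tested members of a gene list in 1 mouse of day 14, minus the mean of the 5 OVA mice, with columns for EAE, OVA and Ctrl replicates 1 to 5 and colours that saturate at -2 and 2. EAE replicate 3 is paler than the other EAE mice in several lists, and erythroid markers go beyond the scale.

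The called members of the MHC, interferon, complement, macrophage and lymphocyte lists were all lower in EAE than in OVA muscle. Of 18 tested genes of MHC and antigen processing 11 were lower and none higher, with a median of -1.11. CD74, the invariant chain of MHC class II, was at 70.9, 56.5, 199, 78.0 and 67.2 RPKM in EAE and 181, 238, 207, 214 and 326 RPKM in OVA mice. EAE replicate 3 lay within the OVA range, the other 4 EAE mice lay below it, and the log2 fold change was -1.44 (SE 0.34, adjusted p = 0.0039). The Ctrl mice reached 641 RPKM. Interferon-stimulated genes were lower for 6 of 13 tested members, led by ISG15 (-1.71), and the list holds 35 genes in all. Complement genes were lower for 10 of 14, or for 6 without EAE replicate 5. C3, the central complement component, overlapped at 10.6 to 41.2 RPKM in EAE and 16.0 to 106 RPKM in OVA mice, and its fall (-1.27) was not called without OVA replicate 2 (-0.93) or EAE replicate 1, 2 or 5. Macrophage markers were lower for 8 of 13 tested, and their sum over 15 markers was 131 to 283 RPKM in EAE, 249 to 365 RPKM in OVA and 261 to 395 RPKM in Ctrl mice. AIF1 fell by 1.25, and FOLR2, lyz2, Lyz1, ADGRE1, ITGAM, Cd209f and CSF1R were the other members called lower. CD163 and MRC1 were not called. Of 13 lymphocyte markers only PTPRC (CD45) was above the rule, at 1.44 to 3.26 RPKM in EAE and 2.36 to 4.38 RPKM in OVA mice, and it fell by 0.73, a call lost without OVA replicate 4 or 5 or EAE replicate 1, 2, 4 or 5 (-0.66 to -0.73). CD3E, the T cell receptor signalling chain, was at 0.04 to 0.33 RPKM in EAE and 0.22 to 0.46 RPKM in OVA mice. The part of leukocyte content in these differences was not tested.

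The calgranulins S100A8 and S100A9, which neutrophils make as a pair, parted. S100A8 was at 335, 334, 130.1, 168 and 156 RPKM in EAE mice, at 84.4, 45.7, 22.5, 28.0 and 52.1 RPKM in OVA mice and at 0.81 to 1.85 RPKM in Ctrl mice. S100A9 was at 45.6, 13.8, 57.2, 29.3 and 34.7 RPKM in EAE mice, at 109, 104, 29.2, 41.6 and 75.1 RPKM in OVA mice and at 1.85 to 4.02 RPKM in Ctrl mice. S100A8 was therefore higher in all EAE mice (log2 fold change 2.31, SE 0.36, adjusted p = 0.00014), S100A9 overlapped and was not called (-0.96, SE 0.39, adjusted p = 0.064), though it was lower without OVA replicate 3 (-1.24) or EAE replicate 3 (-1.16), and both were above Ctrl in the OVA mice (adjusted p = 1.8e-06 and 9.0e-06). The neutrophil genes Ly6g, MPO and ELANE were low in all mice, with Ly6g at 0 to 0.56 RPKM in EAE, 0.26 to 0.88 RPKM in OVA and 0 to 0.11 RPKM in Ctrl mice. Of 5 tested neutrophil markers 1 was called. The mean log2 level of the 5 markers, relative to the OVA mice, was -0.58 to 0.42 in EAE mice. It was -0.88 to 0.64 in OVA and -4.78 to -3.61 in Ctrl mice, so these 5 of the 16 listed markers were on average far lower in Ctrl mice. They had passed the 3 RPKM rule in EAE or OVA mice, a rule in which Ctrl mice had no part, so this gap rests partly on the rule. The part of neutrophil content was not tested.

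Erythroid transcripts had the largest fall of any list, with 8 of 9 tested members lower (median log2 fold change -3.43). Hbb-bs, an adult beta globin (chr7:103826523-103827928 in GRCm38), was at 57.7, 10.3, 17.8, 34.8 and 7.90 RPKM in EAE mice and at 498, 178, 156, 291 and 241 RPKM in OVA mice. The Ctrl mice, at 52.6 to 192 RPKM, lay between, and overlapped both groups. The log2 fold change was -3.66 (SE 0.49, adjusted p = 4.1e-05), and Hbb-b1 (-3.71), Hba-a1 (-3.66) and Hba-a2 (-3.45) behaved alike, although reads of these near-identical copies may be split or dropped. alas2, the haem synthesis enzyme of red cell precursors, has no such copy and was at 3.22, 0.94, 1.21, 2.57 and 0.46 RPKM in EAE and 20.2, 14.4, 10.7, 20.9 and 14.4 RPKM in OVA mice. It fell by 3.43 on the log2 scale (SE 0.44, adjusted p = 2.8e-05). The summed level of the 12 erythroid markers was 98.0 to 305 RPKM in EAE, 659 to 2083 RPKM in OVA and 294 to 892 RPKM in Ctrl mice. SLC4A1 and EPB42 were below 3 RPKM in all of the 10 mice, and the part of blood left in the muscle was not tested.

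Other cell types showed less. Of 16 tested endothelial markers 3 were lower, KDR by 0.92, VWF by 0.80 and EMCN by 0.73, and none was higher (5 were lower without OVA replicate 1), and their summed level was 399 to 520.0 RPKM in EAE and 415 to 543 RPKM in OVA mice. None of 7 tested Schwann cell and myelin markers was called. Of 8 tested adipocyte markers 1 was higher and 2, Scd1 and FABP4, were lower, with a median log2 fold change of -0.37. None was called lower when libraries were scaled to the sum without the 10 most abundant genes. ADIPOQ was not called. Car3, a carbonic anhydrase of fat and of muscle fibres, was the higher member, at 559 to 1269 RPKM in EAE and 163 to 474 RPKM in OVA mice.

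The 5 EAE mice did not respond to the same extent. EAE replicate 3 was the mouse nearest to the OVA mice for 532 of the 957 genes called higher (55.6%) and for 465 of the 805 called lower (57.8%). EAE replicate 2 was the farthest for 527 (55.1%) and 563 (69.9%) of them. EAE replicate 3 was also the deepest library. When each of the 10 mice was left out in turn, 683 genes were called higher and 576 lower every time.

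On day 40 few genes passed the rule. Between the other 5 EAE and 5 OVA mice of that day, 3 of 8598 tested genes (0.0349%) were higher and 15 (0.174%) lower by the same rule, and 1500 had an unadjusted p below 0.05, where 430 would be so with no difference in any gene. The change of the difference between the days was tested with an interaction term, and it passed an adjusted p of 0.05 for 3116 of the 8674 genes (35.9%), with 2130 in the direction of a larger rise on day 14. Of the genes called on day 14, 879 of those higher and 629 of those lower passed it. The interaction term contains the day 14 difference by which these genes were called, so a high share was set in advance. CHRNA1 differed by -0.16 on day 40 (interaction 3.08, adjusted p = 1.4e-09) and MYOG by 0.03 (interaction 3.94, adjusted p = 3.9e-07). CKMT2 differed by 0.12 (interaction -2.34, adjusted p = 3.5e-08), and COL1A1 by 0.04 (interaction -2.67, adjusted p = 5.9e-05). None of these 4 genes was called on day 40. Their interaction p-values are no independent evidence, since the genes were chosen with their day 14 differences known.

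**Figure D5:**
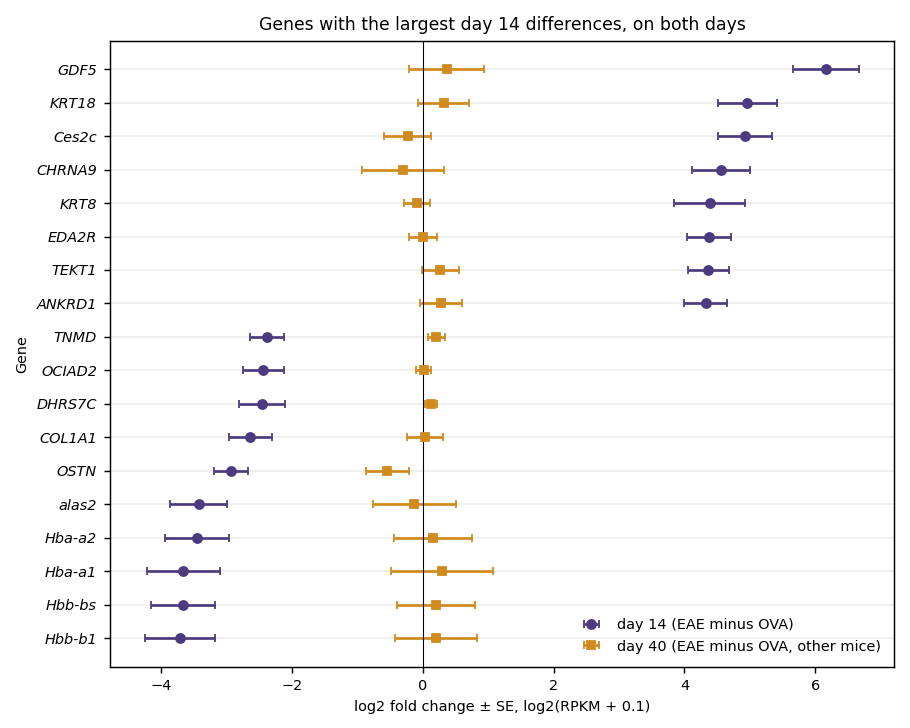
Log2 fold change, EAE minus OVA on log2(RPKM + 0.1), with SE bars, for genes with some of the largest differences on day 14 whose groups did not overlap (circles) and the same genes in the other mice of day 40 (squares). GDF5 goes from 6.16 to 0.37 and COL1A1 from -2.64 to 0.04, and the day 40 squares all lie within 1 of 0. Trdj1, listed at 0 in the OVA mice, is not drawn.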

How the data were processed

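EDL muscles of SJL/J mice were profiled by stranded, poly(A)-selected, paired-end RNA-Seq, with mapping to mm10 by Subread and gene counting by featureCounts. The authors deposited 1 table of log2(RPKM + 1) values per gene and mouse, in which 0.0001 stands for no read. Low values were whole multiples of 1 read (within 2%) for 97.1% of values on this scale, against 46.7% if the values were RPKM. The values were turned back to RPKM, and depth was estimated from the size of 1 read. RPKM values are no counts, so no count model was fitted.

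limma 3.58.1 in R 4.3.3 was fitted to log2(RPKM + 0.1), with a trend in the variance, over the 15 mice of day 14 (all 30 for the change between days). A fold change on this scale understates the change of low genes. Genes above 3 RPKM on average in either group were tested, and calls required a Benjamini-Hochberg adjusted p below 0.05 over all tested genes and a change above 1.5-fold. Gene lists (56) and members were chosen with earlier results of these data known. Genes are named by these rules: the 10 called genes of each direction with the largest change and no overlap, key genes of the lists, the 8 called genes of each direction with the largest difference in RPKM, and the called member of each list with the largest rise or fall. Other list members were named after their values were seen, and results for some genes are not reported here. The fit was tested on simulated data. Promoters and coordinates came from RefSeq (GRCm38.p6). Symbols are those of the table, and 27 that a spreadsheet had turned into dates were not used by name. In all, 23 settings were computed as alternatives, among them other pseudocounts, filters, scalings and leaving out each mouse. The labels do not tie replicate numbers to a shared litter or cage. Dixon's test (critical value 0.71) marked single mice.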

Additional observations from a re-analysis of the deposited data

Results flagged for a closer look

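Dixon's test was run on the named genes in the EAE and in the OVA mice and marked 18 of 315 sets of 5 mice, where chance marks about 1 in 20, or 15.8, so the number of marks is near that of chance. OVA replicate 1 was the lowest OVA mouse for CHRND (1.38 RPKM), CAMK2B (47.3), HK2 (54.3), KCNA7 (63.0), TXNRD1 (20.4) and XIRP1 (12.4). OVA replicate 3 was the lowest for TEKT1 (0.18), and OVA replicate 4 for PSMB8 (14.5) and PSMB9 (8.81). OVA replicate 5 was the highest for ANKRD1 (183), STBD1 (56.3) and TNFRSF12A (76.2). Among the EAE mice every mark fell on replicate 3, which was the lowest for CAMK2B (69.2), FHL1 (686), GLUL (184) and Trdj1 (0.62) and the highest for CD74 (199) and PTPRC (3.26), in each case toward the OVA mice. The causes were not tested.

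For the genes named here, which had some of the largest differences on day 14, the change of the difference between day 14 and day 40 was past the threshold (interaction term, limma). The genes were picked by the day 14 difference, which the interaction term contains, so their passing was partly set in advance. The day 14 difference exceeded that of day 40, on the log2 scale, by 5.80 for GDF5, 5.16 for Ces2c, 4.87 for CHRNA9, 4.64 for KRT18, 4.48 for KRT8, 4.37 for EDA2R, 4.10 for TEKT1 and 4.04 for ANKRD1. Among genes lower on day 14 it was -3.95 for Hba-a1, -3.91 for Hbb-b1, -3.86 for Hbb-bs, -3.61 for Hba-a2, -3.30 for alas2, -2.67 for COL1A1, -2.59 for TNMD, -2.58 for DHRS7C, -2.45 for OCIAD2 and -2.39 for OSTN. Adjusted p-values ran from 2.2e-08 for EDA2R to 0.0041 for Hba-a1.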

How the results depend on the processing

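Against 957 genes called higher and 805 called lower, dropping the 1.5-fold rule gave 2064 and 1326, and testing without a filter on low values gave 1261 lower. The other alternatives stayed within 1.5 times, with 760 higher and 930 lower under quantile normalization, 844 and 877 under median-of-ratios scaling, and 826 and 702 with a pseudocount of 1. Leaving out 1 mouse gave 798 to 1074 higher, 635 to 897 lower and 2480 to 3265 genes whose difference changed between the days, and the lowest counts on day 14 came without EAE replicate 2. With the replicate number as a block, 1003 genes were higher, 816 lower and 3200 changed between the days, but the numbers are not shown to pair mice, since deviations of EAE and OVA mice of equal number correlated at 0.69, 0.44, 0.01, 0.25 and 0.01 and only replicate 1 correlated best with its own number. Of the fibre genes that were not called, ACTA1 turned positive under quantile normalization (0.22), scaling without the 10 most abundant genes (0.061) and removal of the length trend (0.098), and ATP2A1 under the first (0.24) and the second (0.024), while leaving out 1 mouse gave -0.15 (without EAE replicate 3) to 0.058 (without EAE replicate 1). Quantile normalization ended the calls of HSPB6 (-0.45), MYOZ1 (-0.50) and CAMK2B (0.58), and removal of the length trend those of HSPB6 (-0.56) and NCL (0.56). TNNC2 lost its call under both (-0.43 and -0.43), without the 10 most abundant genes (-0.58) and with no filter (-0.67), and SOD3 and PTPRC theirs without the 10 most abundant genes and with a pseudocount of 1. PPARGC1A was called lower with the length trend removed (-0.62), S100A9 under quantile normalization (-1.07) and PYGM under median-of-ratios scaling (-0.61). With no filter, 17 interferon-stimulated genes were lower and the erythroid median was -1.98. Depth limits genes near 0 in OVA mice, whose fold changes depend on the pseudocount (KRT18 from 3.13 to 5.46). The causes were not tested.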

Other observations

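The rise of Trdj1 was accompanied by that of Trdc, the constant region of the same T cell receptor delta locus, which was picked out after its values were seen. Trdc was at 5.87, 7.47, 2.22, 3.18 and 3.66 RPKM in EAE replicates 1 to 5 and at 0.24 RPKM or less in every OVA mouse (log2 fold change 4.20, SE 0.38, adjusted p = 1.8e-06 by limma). EAE replicate 3 was the lowest for both. Over the same mice CD3D, a chain that every T cell receptor needs, was at 0.08 to 0.28 RPKM in EAE and 0.16 to 0.50 RPKM in OVA mice and overlapped between the groups near 0. The source of the delta transcripts was not tested. On day 40, Trdc differed by -0.71 (interaction 4.92, adjusted p = 5.4e-07). This interaction contains the day 14 difference for which Trdc was picked.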
